A study of Mus musculus with 4 samples.

Results

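Expanded clonotypes are the T-cell receptors that were found in at least 2 cells of the same tumor library, and they were compared here with the receptors found in a single cell. The members were chosen by the deposited clonotype number: productive alpha (TRA) and beta (TRB) chains were kept, distinct cells were counted for each number within each library, and a clonotype with 2 or more cells was called expanded. By this rule 67 of 234 cells, in 26 of 193 clonotypes, belonged to expanded clonotypes. The other 167 cells each had a clonotype of their own. The clonotype number rests on the CDR3 sequences of the productive chains, so clonotype sizes, and which chains a clonotype has, are description, and no test was run on them.

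The series is on loss of retinoic acid signaling in IDH mutant glioma, a brain tumor, and on how it escapes immune cells. C57BL6 mice aged 6 weeks received 50000 tumor neurosphere cells in the striatum and were given intraperitoneal injections, on alternate days, of either all-trans retinoic acid (ATRA) at 10 mg/kg or control, until signs of disease of the nervous system. CD45-positive immune cells were sorted from the tumors and the brain around them, so the T cells may come from either. Each treatment gave 1 receptor library, and neither the number of mice in each nor the neurospheres' genotype beyond the title is stated in the labels. No value below has a replicate, and the treatments were not tested against each other. Gene expression of the same cells was not analysed here. Whether a cell was a CD4 or a CD8 T cell was therefore not known.

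An alpha-beta T cell carries a receptor made of 1 alpha and 1 beta chain, each joined from V and J segments (and a D segment in beta) while the cell develops in the thymus. The CDR3 spans the join, is the most variable loop of the chain and touches the peptide. Cells that descend from 1 T cell share the same joins, base for base, so several cells with identical CDR3 nucleotides are usually read as a clone. The alpha locus can be rearranged on both chromosomes and more than once on each, and a join that is out of frame can still be transcribed. Different cells can also reach the same CDR3 protein through different bases.

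The control library had 16 of 74 cells in expanded clonotypes and the ATRA library 51 of 160. The control members were 7 of 65 clonotypes, of which 5 had 2 cells and 2 had 3. The ATRA members were 19 of 128 clonotypes, of which 14 had 2 cells and 2 had 3, and the largest had 4, 6 and 7 cells. At the threshold, 2-cell clonotypes lay just inside the rule and single cells just outside it. Receptor UMIs, the tagged RNA molecules, numbered 382 in control and 1841 in ATRA, and the members held 76 (19.9%) and 592 (32.2%) of them. No cell barcode occurred in both libraries (0 shared). Within all 7 control and all 19 ATRA expanded clonotypes, every cell had the same set of CDR3 nucleotides.

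The most abundant expanded receptor, ATRA clonotype 1, is shown with the extra alpha join that its cells carried, because that join was not used by the rule. Capitals mark the CDR3 without its first and last 4 codons.
ATRA clonotype 1, alpha, TRAV6-6 and TRAJ39: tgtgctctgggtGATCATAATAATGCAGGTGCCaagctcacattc
ATRA clonotype 1, beta, TRBV5 and TRBJ2-4: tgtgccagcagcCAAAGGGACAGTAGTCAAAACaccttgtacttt
ATRA clonotype 1, nonproductive alpha, TRAV12D-2 and TRAJ16: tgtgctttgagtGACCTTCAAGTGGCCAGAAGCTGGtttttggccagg

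A receptor that recurred across clonotypes and libraries, TRAV21-DV12 with TRAJ53 and mostly TRBV26 with TRBJ2-1, is shown through its beta chains. Capitals mark the bases that differ within the set.
Control clonotype 7, beta: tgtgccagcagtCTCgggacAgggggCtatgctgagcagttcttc
ATRA clonotype 2, beta: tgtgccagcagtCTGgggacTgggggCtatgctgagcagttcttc
ATRA clonotype 6, beta: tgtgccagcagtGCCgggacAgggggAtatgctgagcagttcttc
ATRA clonotype 8, beta (TRBV14): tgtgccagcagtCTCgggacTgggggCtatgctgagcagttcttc

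In the ATRA library, 4 different alpha joins of 5 expanded clonotypes ended in the same TRAJ34 stretch, and are shown with capitals for the bases that differ.
ATRA clonotype 7, alpha, TRAV5-4: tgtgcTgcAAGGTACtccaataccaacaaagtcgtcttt
ATRA clonotype 9, alpha, TRAV5-4: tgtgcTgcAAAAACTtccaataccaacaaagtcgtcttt
ATRA clonotypes 12 and 19, alpha, TRAV14D-1: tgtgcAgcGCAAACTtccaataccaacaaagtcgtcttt
ATRA clonotype 13, alpha, TRAV14D-1: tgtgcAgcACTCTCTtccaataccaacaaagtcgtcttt

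In RefSeq's annotation of GRCm38.p6, 56 of the 57 segment names looked up had an entry. TRAV6-6 lies at chr14:53516929-53517366, TRAV12D-2 at chr14:52915915-52916426, TRAV21-DV12 at chr14:53876016-53876752 and TRAJ34 at chr14:54184699-54184756. TRBV26 lies at chr6:41227525-41227913 and TRBJ2-1 at chr6:41542754-41542803. TRBV29, used by 2 control and 2 ATRA expanded clonotypes, lies at chr6:41271403-41271881 and carries the biotype of a V segment pseudogene in that table, although the deposited tables mark the chains as productive. Each of these is a germline segment, and a CDR3 crosses from the V segment into the J segment.

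The ATRA members were mostly complete receptors, and depth varied widely between cells of 1 clonotype. Clonotype 1 had alpha UMIs of 4, 4, 2, 1, 2, 5 and 5 in its 7 cells, beside beta UMIs of 5, 21, 9, 2, 2, 24 and 14. The summed depth thus ran from 3 to 29 UMIs, a 9.67-fold range within cells of 1 receptor. Clonotype 2 was more even, with alpha UMIs of 2, 3, 3, 6, 4 and 2 and beta UMIs of 10, 10, 5, 8, 10 and 8 in its 6 cells. Its beta count exceeded its alpha count in every one of those cells.

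Clonotype 3 had an alpha chain of TRAV3D-3 and TRAJ40 and a beta chain of TRBV19 and TRBJ1-6, with alpha UMIs of 2, 3, 8 and 2 and beta UMIs of 1, 3, 2 and 5. Clonotype 4 paired TRAV9-2 and TRAJ39 with TRBV29 and TRBJ2-1, with alpha UMIs of 6, 1 and 5 and beta UMIs of 22, 4 and 4. Clonotype 5 paired TRAV4-4-DV10 and TRAJ49 with TRBV29 and TRBJ1-2, with alpha UMIs of 13, 26 and 5 and beta UMIs of 8, 22 and 5. Its deepest cell, with 48 UMIs, was the deepest of all member cells. The 14 remaining ATRA clonotypes had 2 cells each, and their cells ranged from 3 to 29 UMIs.

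The control members were shallower and 3 of the 7 clonotypes lacked a chain. Clonotype 1 was a TRBV29 and TRBJ2-1 beta chain alone, with 5, 8 and 5 UMIs in 3 cells. Clonotype 2 had that same beta chain, base for base, at 2, 2 and 3 UMIs, with a TRAV9-2 and TRAJ31 alpha chain at 1, 2 and 3 UMIs. The beta counts of the cells without an alpha chain lay above those of the cells with one. The clonotypes numbered 5 and 6 repeat this arrangement: a beta chain named TRBV12-2+TRBV13-2 with TRBJ1-1 occurred alone at 4 and 7 UMIs, and beside TRAV16D-DV11 and TRAJ23 at 2 and 3 UMIs, with 2 and 1 alpha UMIs. The 2 shared beta chains are these, with the CDR3 without its outer 4 codons in capitals.
Control clonotypes 1 and 2, beta: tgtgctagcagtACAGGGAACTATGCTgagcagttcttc
Control clonotypes 5 and 6, beta: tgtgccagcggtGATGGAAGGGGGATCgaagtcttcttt

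Of the other control members, clonotype 3 had a TRAV12D-3 and TRAJ12 alpha chain at 3 and 2 UMIs and no productive beta chain. Clonotype 4 paired TRAV7-3 and TRAJ27, at 3 UMIs in both cells, with TRBV5 and TRBJ2-2, at 1 UMI in both. Clonotype 7, the recurring receptor, had alpha UMIs of 2 and 1 and beta UMIs of 8 and 2. No control member cell had more than 10 UMIs, against 48 at most in ATRA.

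**Figure D1:**
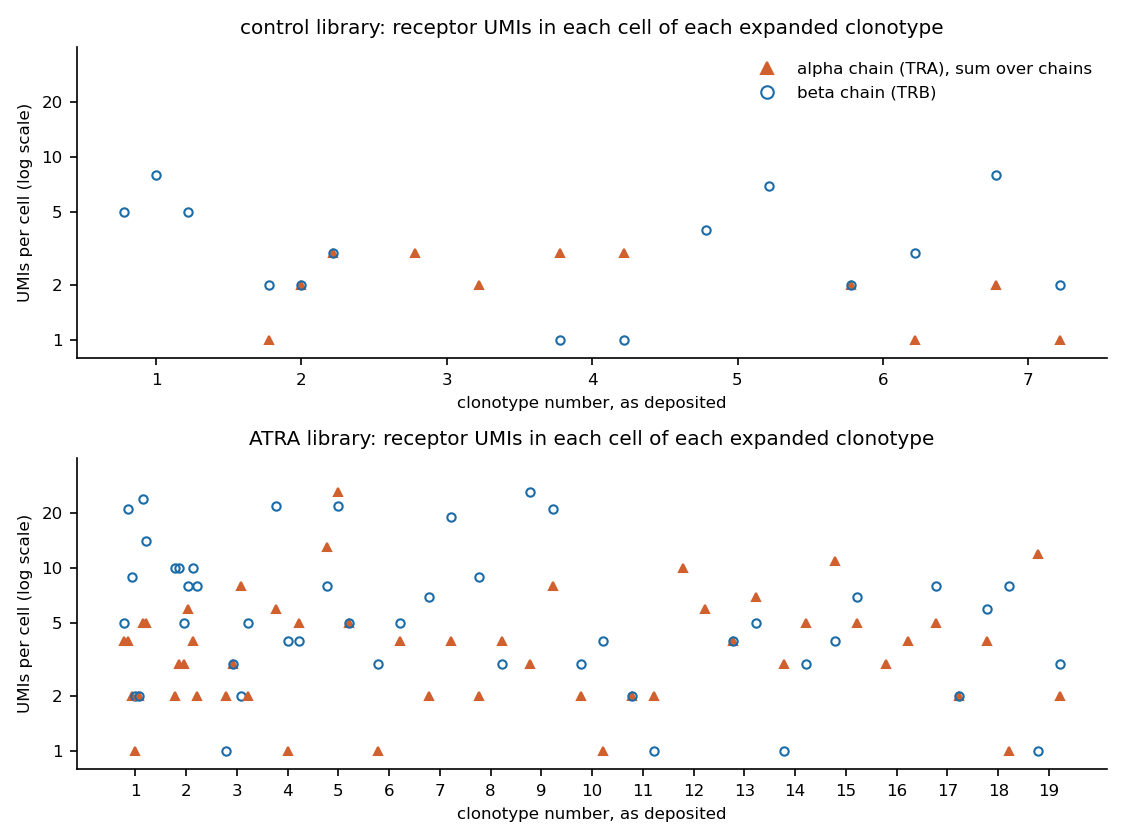
Receptor UMIs (log scale) of each cell of each expanded clonotype, by deposited clonotype number, with triangles for alpha chains and open circles for beta chains; a missing symbol means that no productive chain was listed. Control clonotypes 1 and 5 have beta chains alone, and ATRA clonotype 1 has beta counts from 2 to 24 in its 7 cells.

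The nonproductive joins, which the clonotype numbers do not use, were shared by the cells of expanded ATRA clonotypes. The TRAV12D-2 and TRAJ16 join shown above was found in 5 of the 7 cells of clonotype 1, at 2 to 8 UMIs. A TRAV8N-2 and TRAJ45 join was found in all 3 cells of clonotype 5 at 2 to 10 UMIs, and a TRAV6-7-DV9 and TRAJ49 join in all 3 cells of clonotype 4 at 1 to 6 UMIs. Clonotype 14 had a TRAV13D-3 and TRAJ31 join in both of its cells, and clonotype 2 a TRAV10 and TRAJ56 join in 2 of its 6 cells, at 1 UMI each. Joins listed with no CDR3, as those of clonotypes 4, 5 and 14 were, were matched by V and J names alone.

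Counted over clonotypes, 5 of the 6 ATRA members that had such a join in at least 2 cells shared one between cells. Counted over pairs of cells that both had such a join, 18 of 19 pairs within 1 clonotype (94.7%) had one in common. Most of these 18 pairs were among the 5 cells of clonotype 1. Only clonotypes 1 and 2 shared a join matched by its CDR3 bases. Among pairs from different clonotypes, 14 of 2259 (0.620%) had a join in common. These 14 divided by their productive chains: 8 of 19 pairs (42.1%) that had a productive chain in common, and 6 of 2240 (0.268%) that had none. Most of the 14 rest on single cells 84, 87 and 45, described below, which held joins of clonotypes 1 and 2. Single cell 87 was in all 6 pairs with no productive chain in common. Pairs share cells, so these shares carry no interval, and the difference was not tested.

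Single cells outside the expanded clonotypes held some of the same joins. ATRA clonotype 84, a single cell, had the TRAV12D-2 and TRAJ16 join at 3 UMIs and also the beta chain of clonotype 1, at 9 UMIs, with another alpha and another beta chain beside them. Single cell 45 had the TRAV10 and TRAJ56 join of clonotype 2 at 2 UMIs and clonotype 2's beta chain at 5 UMIs, with no productive alpha chain. Single cell 87 had the TRAV12D-2 and TRAJ16 join at 1 UMI and no productive chain of clonotype 1. In control, no expanded clonotype had such a join in 2 cells, so sharing could not be counted. Between control clonotypes it was found in 1 of 105 pairs, a TRBV19 and TRBJ2-3 join with 32 UMIs in a cell of clonotype 3 and 1 UMI in single cell 31.

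**Figure D2:**
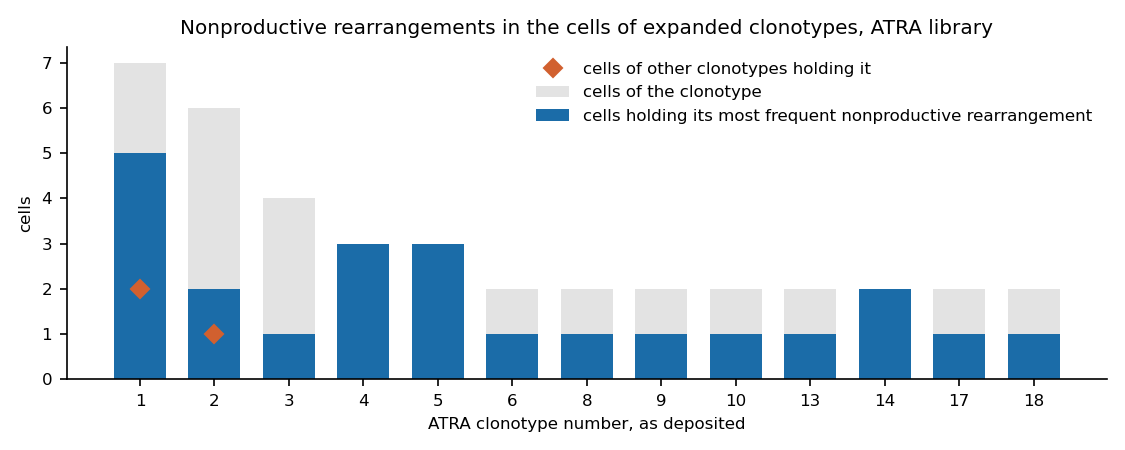
Grey bars give all cells of each expanded ATRA clonotype in which any cell had a nonproductive V-J join. Blue bars give the cells holding its most frequent join, and diamonds the cells of other clonotypes holding the same join. The vertical axis counts cells. The join was found in 5 of 7 cells of clonotype 1, 3 of 3 in clonotypes 4 and 5, and 2 of 2 in clonotype 14.

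Counts of nonproductive contigs of any kind overlapped within their intervals between expanded and single-cell clonotypes. The members had 0.625 per cell in control (exact Poisson 95% interval 0.300 to 1.15) and 1.29 in ATRA (1.00 to 1.65). Single cells had 0.707 (0.507 to 0.959) and 1.12 (0.929 to 1.34).

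The line between expanded and single-cell clonotypes was crossed by shared chains. A productive chain identical in V, J and nucleotides to one of a member was carried by 4 of 58 control single cells, 6.90% (exact 95% interval 1.91 to 16.7), and by 10 of 109 ATRA single cells, 9.17% (4.49 to 16.2). With nonproductive copies of a member CDR3 counted too, it was 6 of 58 (10.3%, 3.89 to 21.2) and 15 of 109 (13.8%, 7.91 to 21.7). Among the control cells, 46 and 64 had the beta chain of clonotypes 5 and 6 at 2 UMIs each, 50 had the beta chain of clonotype 7 at 3, and 33 its alpha chain at 1. Among the ATRA cells, 32 and 41 had the beta chain of clonotype 5, at 5 and 1 UMIs, and 45 and 64 that of clonotype 2, at 5 and 12. Clonotype 64 also had another alpha chain. More than 1 beta chain was listed in 2 of these 4 control cells and 1 of these 10 ATRA cells.

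Members also shared chains with each other. This was so for 4 of 7 control clonotypes, which are the beta chain pairs 1 with 2 and 5 with 6. In ATRA 6 of 19 did (31.6%), and there the shared chain was an alpha chain each time. Clonotypes 2 and 8 had the same TRAV21-DV12 alpha chain, 3 and 16 the same TRAV3D-3 alpha chain, and 12 and 19 the same TRAV14D-1 alpha chain. Clonotype 16 had no productive beta chain, but 1 of its cells held clonotype 3's beta CDR3 in a nonproductive contig with 2 UMIs. Nonproductive contigs also held the alpha CDR3 of clonotype 5 in a cell of clonotype 3, at 6 UMIs, and the beta CDR3 of clonotype 7 in a cell of clonotype 14, at 3 UMIs. Unlike 16 and 3, the clonotypes of these pairs had no productive chain in common. With any other clonotype, 5 of 7 control members (71.4%, 29.0 to 96.3) and 9 of 19 ATRA members (47.4%, 24.4 to 71.1) shared a chain. For single-cell clonotypes it was 11 of 58 (18.97%, 9.87 to 31.4) and 31 of 109 (28.4%, 20.2 to 37.9). Cells of 1 clone get different numbers when a chain is missed, so these shares are tied to the rule that chose the members. The difference was not tested.

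The paired share, of cells with both chains, is given for expanded and single-cell clonotypes as a description, since the clonotype number itself takes part in it. A cell whose alpha chain was missed gets another number than its sisters, so chain make-up is tied to the rule. In control, 9 of 16 member cells (56.2%, 29.9 to 80.2) and 21 of 58 single cells (36.2%, 24.0 to 49.9) were paired, a difference of 20.0 points (Newcombe 95% interval -6.37 to 43.5). In ATRA it was 47 of 51 (92.2%, 81.1 to 97.8) and 74 of 109 (67.9%, 58.3 to 76.5), a difference of 24.3 points (10.9 to 34.7). Cells of 1 clonotype share their make-up by the rule, so these intervals over cells are too narrow. Counted as clonotypes, 4 of 7 control members (57.1%) were paired, 20.9 points above the single-cell clonotypes (-13.6 to 50.2), and 17 of 19 ATRA members (89.5%), 21.6 points above (-0.775 to 33.5). Both intervals over clonotypes included 0, and all intervals cover counting error only.

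Where single cells lacked a chain, it was in most cases the alpha chain. A beta chain alone was found in 5 of 16 control member cells (31.2%) and 35 of 58 single cells (60.3%), and in 0 of 51 ATRA member cells, which allows up to 5.88%, and 27 of 109 single cells (24.8%). Extra chains, meaning more than 1 beta or more than 2 alpha chains, were found in 0 of 16 and 0 of 51 member cells, against 4 of 58 and 13 of 109 single cells (11.9%). A pair of alpha chains in 1 cell, which normal T cells can have, was found in 4 of 51 ATRA member cells (7.84%) and 10 of 109 ATRA single cells (9.17%). The 4 member cells were those of clonotypes 12 and 15.

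Median receptor depth over all cells was equal in both groups, though not among paired cells alone. The median was 4 UMIs per cell in both groups of the control library, with quartiles of 3.75 and 5.25 in members and 3 and 6 in single cells. In ATRA it was 9 in both, with quartiles of 5 and 13, and 6 and 14. Among paired cells the median was lower in members, at 4 against 5 in control and 10 against 11.5 in ATRA. For control cells with a beta chain alone it was 5 in members and 4 in single cells. Alpha chains had medians of 2 in both control groups and 3 in both ATRA groups, and beta chains 3 against 3.5 and 5 against 6. After each cell was thinned to 4 UMIs, 55.6% of 12 control member cells and 34.9% of 40 single cells were paired, with 4 and 18 shallower cells left out. In ATRA it was 75.3% of 47 and 52.0% of 105, with 4 left out in each group. The same cells before thinning gave 58.3%, 40%, 93.6% and 68.6%. The order between members and single cells was the same before and after thinning. With at least 3 UMIs required per chain the control order turned, to 0% of members (0 to 41.0) and 10.4% of single cells (3.47 to 22.7). These intervals overlapped. The members left there were clonotypes 1 and 5, beta chains alone, and clonotype 4, whose beta chain had 1 UMI, so none could be paired.

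**Figure D3:**
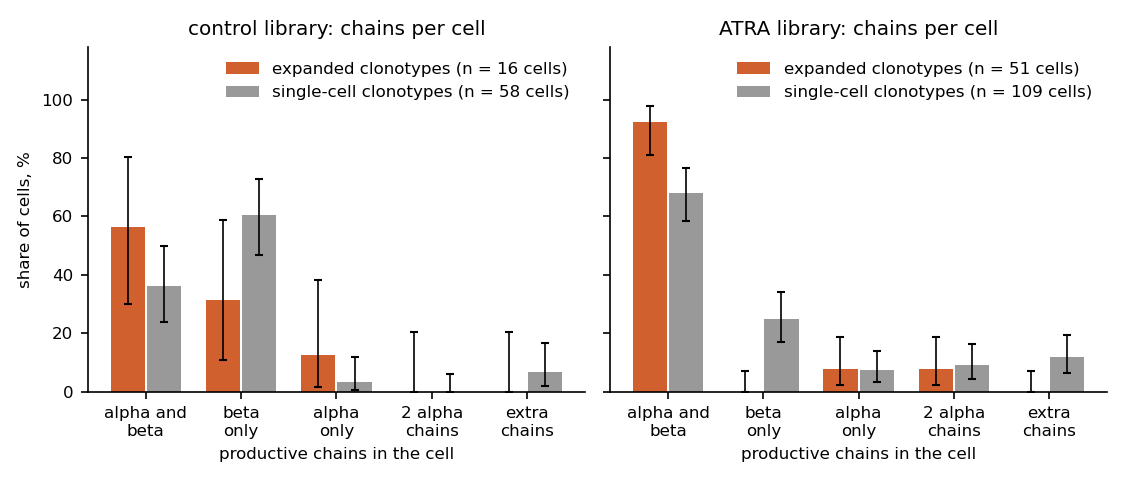
Share of cells by the productive chains they had, for expanded (orange) and single-cell (grey) clonotypes of each library, with exact 95% intervals over cells. Paired cells made up 92.2% of ATRA members and 67.9% of ATRA single cells.

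Several expanded receptors had near copies made from other bases. The beta chains of control clonotype 7 and ATRA clonotypes 2 and 8 encode the same CDR3 protein and differ by 1 or 2 of 45 bases. ATRA clonotype 6 differs from control clonotype 7 by 3 bases and 1 residue, L5A, with positions counted from 1 at the CDR3's first residue, the conserved cysteine. The alpha chains of control clonotype 7 and ATRA clonotypes 2 and 8 were identical base for base over 48 bases, and that of clonotype 6 differed by 1 base without a change of residue. This receptor thus held 2 control and 10 ATRA member cells in 4 clonotypes.

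The exact beta protein was carried by 23 cells of both libraries in 9 nucleotide forms when the V name was ignored. In ATRA it was 8 member cells in 2 forms and 6 single cells in 4 forms. In control it was 2 member cells in 1 form and 7 single cells in 6 forms. The member cells had the same alpha protein in 8 of 8 ATRA and 2 of 2 control cells. Of the single cells with an alpha chain, 3 of 4 in ATRA and 1 of 2 in control had it.

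A second group joined TRAV12-2 and TRAJ26 to TRBV20. ATRA clonotypes 11 and 14 had alpha chains that differed by 1 of 45 bases and 0 residues. Their beta chains joined TRBV20 to different J segments, TRBJ1-1 in clonotype 11 and TRBJ1-6 in clonotype 14, and differed only at residues T9S, E10P, V11L and F12Y. Capitals mark the bases that differ.
ATRA clonotype 11, beta: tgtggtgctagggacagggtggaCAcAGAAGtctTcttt
ATRA clonotype 14, beta: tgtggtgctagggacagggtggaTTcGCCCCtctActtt
Both chains of clonotype 11 were found base for base in 1 control single cell, number 25, at 4 alpha and 8 beta UMIs. The 2 ATRA cells of clonotype 11 had 2 and 2 alpha and 2 and 1 beta UMIs. The alpha chain of clonotype 11 was also in control single cells 17, 46 and 49, at 1, 5 and 3 UMIs, beside beta chains with other CDR3s. Of these, cell 46 had a beta chain of TRBV20 and TRBJ1-1 and also the beta chain of control clonotypes 5 and 6. A chain that is expanded in ATRA was thus in 4 control cells of 4 different clonotypes. Of the other members, control clonotypes 1 and 2 had their beta chain in 1 ATRA single cell, number 97, at 13 UMIs. That cell had TRAV9-2 joined to TRAJ57, where clonotype 2 had TRAV9-2 joined to TRAJ31.

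The third group is that of the TRAJ34 alpha chains shown above. These CDR3 proteins of 13 residues were identical outside positions 4 and 5, and the changes from clonotype 7 were R4K and Y5T in clonotype 9, R4Q and Y5T in clonotypes 12 and 19, and R4L and Y5S in clonotype 13. The form was found in 5 of 21 ATRA member alpha chains (23.8%), of 4 distinct sequences and in 10 cells. It was in 1 of 92 single-cell alpha chains (1.09%). The form was defined from these same 5 member chains after the values were seen. Its count in members was thus fixed by that choice, and the 2 shares cannot show that members favor it. No control chain used TRAJ34. Of these clonotypes, 13 and 19 also had the same beta protein, from TRBV13-3 and TRBJ1-1, in joins that differ at the 2 bases in capitals.
ATRA clonotype 13, beta: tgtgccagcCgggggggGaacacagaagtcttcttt
ATRA clonotype 19, beta: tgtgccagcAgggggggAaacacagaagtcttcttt
That beta protein was in 3 ATRA single cells too, in 3 nucleotide forms. Of those, 2 had an alpha chain, TRAV9N-4 with TRAJ34 in both, but not the form above.

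Counted over distinct CDR3 sequences, a larger share of ATRA members than of single cells had such near copies, and the difference was not tested. The same protein under other bases was found in the library for 4 of 18 member alpha CDR3s (22.2%, 6.41 to 47.6) and 1 of 79 single-cell ones (1.27%, 0.0320 to 6.85). For beta it was 5 of 17 (29.4%, 10.3 to 56.0) and 8 of 95 (8.42%, 3.71 to 15.9). With up to 1 residue of difference it was 7 of 18 (38.9%, 17.3 to 64.3) and 4 of 79 (5.06%, 1.40 to 12.5) for alpha, and 6 of 17 (35.3%, 14.2 to 61.7) and 17 of 95 (17.9%, 10.8 to 27.1) for beta. The alpha intervals did not overlap in the wider count, while those for beta did. In control, the exact protein was found under other bases for 0 of 5 member alpha and 1 of 4 member beta CDR3s, against 0 of 19 and 5 of 55 single-cell ones. Within 1 residue it was 1 of 5 and 1 of 4, against 1 of 19 and 5 of 55. The near copies of members were partly other members, so these counts are not independent.

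**Figure D4:**
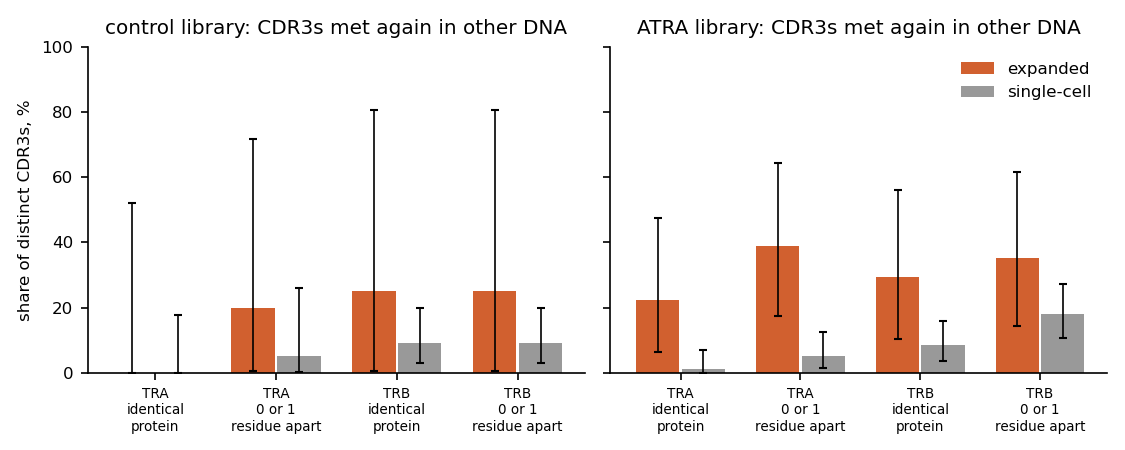
Share of distinct CDR3 nucleotide sequences whose protein, exact or within 1 residue, was found again in the same library under other bases, for expanded (orange) and single-cell (grey) clonotypes, with exact 95% intervals. In ATRA 38.9% of member alpha CDR3s and 5.06% of single-cell ones had a copy within 1 residue.

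Across libraries the counts were small. A member CDR3 with the same bases was found in the other library for 1 of 5 control alpha, 1 of 4 control beta, 2 of 18 ATRA alpha and 2 of 17 ATRA beta sequences. For single-cell CDR3s of ATRA it was 0 of 79 alpha and 2 of 95 beta, and of control 1 of 19 and 3 of 55.

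Segment use in members followed the few clonotypes. A segment was counted where it had at least 5 cells, and called where its share of cells was at least 2-fold higher or lower in members than in single cells. In control 3 of 16 segments were higher (18.8%) and 0 were lower (0%). In ATRA 19 of 46 were higher (41.3%) and 3 lower (6.52%). Where one group had 0 cells, a floor of 3 counts stood in for it, and with few member cells this leaves a segment uncalled. Members had 0 cells of 7 of the 16 control segments and 12 of the 46 ATRA segments, and 0 of these were called lower. The low counts of lower calls thus partly follow from the rule. The 5 cells were summed over both groups, so a segment can be counted through the member cells that make it high. In ATRA, TRAJ40 was counted with 8 member cells and 1 single cell, while TRAJ32, with 0 and 4, was not. The number of higher calls thus also partly follows from the rule. Intervals of the ratios count cells as independent, which cells of 1 clonotype are not, so they are too narrow.

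In control, TRBV29 was in 6 of 14 member cells with a beta chain (42.9%) and 4 of 56 single cells (7.14%), a ratio of 6.00 (exact conditional 95% interval 1.42 to 28.9). Those 6 cells are the 2 clonotypes that share 1 beta chain, so they rest on 1 join. TRBJ2-1 was in 8 of 14 (57.1%) and 13 of 56 (23.2%), a ratio of 2.46 (0.884 to 6.41), in 3 clonotypes. TRBJ1-1 was in 4 and 6 cells, a ratio of 2.67 (0.553 to 11.2), in the 2 clonotypes numbered 5 and 6. The most used alpha segments, TRAV9-2 and TRAJ31, had 3 member cells each, all of clonotype 2. All other alpha segments of the control members were in 2 cells.

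In ATRA the most used alpha J segments of the members were TRAJ34, TRAJ39 and TRAJ53, with 10 of 51 cells each (19.6%). TRAJ39 was in 2 clonotypes, numbers 1 and 4, and in 0 of 82 single cells. A count of 0 allows up to 3.66% (3 counts over the group), against which the member share was at least 5.36-fold higher. That fold rests on clonotype 1: without its 7 cells, TRAJ39 had 3 member cells, which is no more than the floor, and no fold is given. TRAJ53 was in 5 single cells, a ratio of 3.22 (1.00 to 11.99), and its 10 member cells were all of the recurring receptor. TRAJ34 was in 7 single cells, a ratio of 2.30 (0.789 to 7.11), but in 5 of 19 member clonotypes, the most of the 3. Clonotypes 12 and 19 share 1 of its joins, so the 5 clonotypes hold 4 distinct ones. TRAJ40, in 3 clonotypes, was in 8 member cells and 1 single cell, a ratio of 12.9 (1.72 to 571), and was named after its values were seen. Of those 8 cells, 6 rest on the 1 join that clonotypes 3 and 16 share.

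Among V segments, TRAV21-DV12 was in 10 member and 7 single cells of ATRA, a ratio of 2.30 (0.789 to 7.11), in 3 member clonotypes, and at 1.85 over clonotypes it was under 2-fold. TRAV6-6 was in 7 and 2, a ratio of 5.63 (1.07 to 55.5), all 7 in clonotype 1. TRAV14D-1 and TRAV3D-3 had 6 member cells each, in 3 and 2 clonotypes. Clonotypes 12 and 19 share 1 TRAV14D-1 join, and the 6 TRAV3D-3 cells, of clonotypes 3 and 16, rest on 1 join. TRBV26 was in 8 of 47 member cells (17.0%), of 2 clonotypes, and 9 of 101 single cells (8.91%). TRBV5 was in 7 member cells, all of clonotype 1, and 9 single cells. TRBV19 and TRBV29 were in 6 member cells of 2 clonotypes each, against 5 and 10 single cells. TRBV19 passed the size rule with a ratio of 2.58 (0.656 to 10.7), though not with clonotypes defined by the beta chain (1.76), and TRBJ2-4 passed it with 2.51 (0.721 to 9.03), all 7 cells of TRBJ2-4 in clonotype 1.

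The 3 segments lower in ATRA members were each in 1 member clonotype of 2 cells. TRBJ2-7 was in 2 of 47 member cells and 17 of 101 single cells, a ratio of 0.253 (0.0283 to 1.07). TRBV13-1 was in 2 and 15, a ratio of 0.287 (0.0318 to 1.23), and TRBV14 in 2 and 11, a ratio of 0.391 (0.0421 to 1.79). All 3 intervals included 1. With clonotypes defined by the beta chain none of the 3 kept the call, with ratios of 0.524 for TRBJ2-7, 0.611 for TRBV13-1 and 1.26 for TRBV14. TRBJ1-1 and TRBJ2-1 were within 2-fold, with 8 and 15 member cells of 4 and 5 clonotypes against 15 and 30 single cells.

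**Figure D5:**
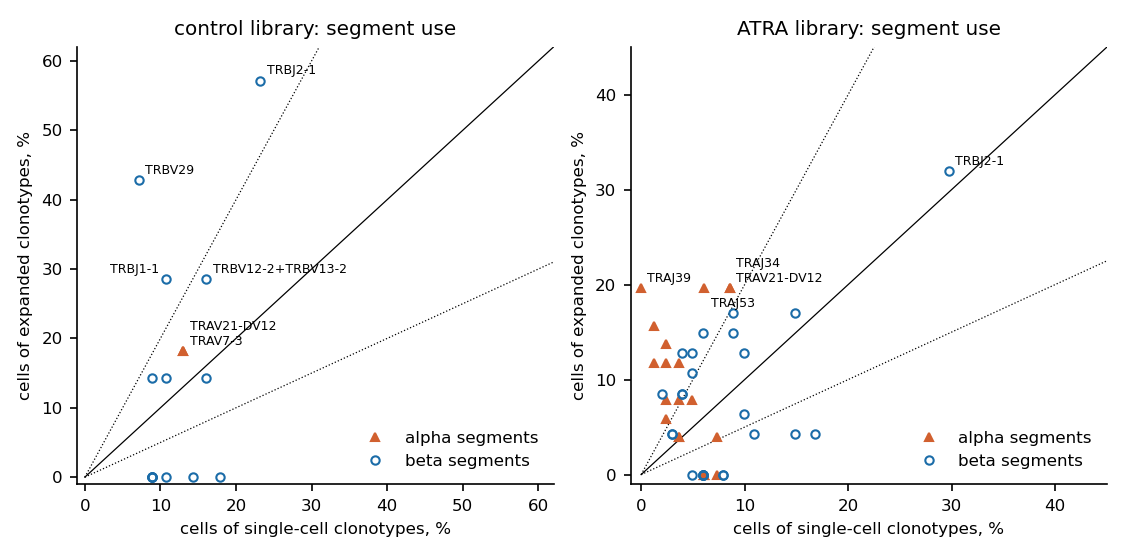
Share of cells using each counted segment in single-cell clonotypes (horizontal axis) and in expanded clonotypes (vertical axis), of cells with a chain of that locus, with triangles for alpha and open circles for beta segments, a solid line at equal shares and dotted lines at 2-fold. TRBV29 (42.9% against 7.14%) in control and TRAJ39 (19.6% against 0%) in ATRA lie farthest above the upper line.

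Alpha J segments near the constant region were in a smaller share of ATRA member cells than of its single cells. J segments with low numbers lie nearest the constant region and are reached by later rearrangements of the same chromosome. Segments numbered 25 or lower were used by 4 of 51 ATRA member cells (7.84%, 2.18 to 18.9) and 29 of 82 single cells (35.4%, 25.1 to 46.7), a ratio of 0.222 (0.0566 to 0.632). Over clonotypes it was 2 of 19 members (10.5%) and 29 of 82 single-cell clonotypes (35.4%), a ratio of 0.298 in the same direction. Over distinct alpha chains it was 2 of 21 (9.52%, 1.17 to 30.4) and 31 of 92 (33.7%, 24.2 to 44.3), and these intervals overlapped. The median J number over alpha chains was 37 in members (quartiles 34 and 40) and 32 in single cells (21 and 45). The members thus lay in the middle of the cluster, with a lower upper quartile than the single cells. In control the order was the reverse, with 4 of 11 member cells (36.4%, 10.9 to 69.2) and 4 of 23 single cells (17.4%, 4.95 to 38.8), from 2 member clonotypes. The beta J2 cluster was used by 71.4% of cells in both control groups, and by 59.6% of ATRA member and 66.3% of single cells.

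Mean CDR3 length differed by less than 1 residue between expanded and single-cell clonotypes. Over distinct chains of control, alpha CDR3s averaged 13.8 residues in members (SD 1.48, n = 5) and 13.7 in single cells (SD 1.79, n = 23), and beta CDR3s 14 (SD 1.67, n = 6) and 14.02 (SD 1.27, n = 60). In ATRA alpha CDR3s averaged 14.3 (SD 1.43, n = 21) and 13.9 (SD 1.33, n = 92), and beta CDR3s 14.2 (SD 1.38, n = 17) and 13.96 (SD 1.30, n = 114). Every difference was below 1 SD.

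The composition of the loop, taken without the outer 4 residues of each end, also differed by less than 1 SD. Glycine made up 32.7% of the beta loop in control members and 22.9% in single cells, and 29.9% and 23.9% in ATRA. In the alpha loop it was 27.3% and 20.9% in control, but 17.2% and 22.5% in ATRA. Aromatic residues made up 9.05% and 8.88% of the beta loop in control, and 6.26% and 10.5% in ATRA. The recurring receptor has a run of glycine, threonine and 2 glycines in its beta loop. That run was in 5 of 17 ATRA member beta chains (29.4%) and 11 of 114 single-cell ones (9.65%), and in 1 of 6 and 7 of 60 in control, and was chosen after the values were seen. The counts include the receptor that defined the run: ATRA clonotypes 2, 6 and 8 and control clonotype 7 among members. Its exact beta protein was also in 6 ATRA and 7 control single cells. The counts are thus not independent of that receptor.

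Receptors of unconventional T cells were looked for as well. The alpha chains of invariant natural killer T cells, which see lipids, and of mucosal-associated invariant T cells, which see vitamin B metabolites, were in 0 of 11 control and 0 of 51 ATRA member cells with an alpha chain, which allows up to 27.3% and 5.88%. Contigs with gamma or delta segments were found in 0 member cells, against 1 control and 2 ATRA single cells.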

How the data were processed

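T-cell receptor contigs of 2 libraries (1 control, 1 ATRA) were used. Gene expression was not analysed here. Per the submitters' processing notes, bcl2fastq 2.20.0, Cell Ranger 3.1.0 and GRCm38 were used. The deposited tables give, per the file headers, counts of UMIs and reads for each contig, not normalized, with segment names, CDR3 and clonotype number.

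Cells, chains and clonotypes were counted with Python 3.11.15, pandas 2.3.3, NumPy 2.4.6 and SciPy 1.17.1, and figures were drawn with matplotlib 3.10.9. Intervals are exact (Clopper-Pearson), Newcombe for differences and exact conditional for ratios, all at 95%. They and the floor of 3 counts cover counting error only. With 1 library per treatment no test was run. No doublet caller was run, and cells with extra chains were kept. Interval code was tested on simulated data.

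Named were all control members, ATRA members of 3 or more cells, those sharing a chain, the 3 most used segments of each locus with ties, and up to 8 segments per library past the 2-fold rule. The members and lists were chosen with earlier results of these data known. Bases added at the joins were not counted, since no genome was used here. Alternatives were UMI minima of 2 and 3, paired cells, no extra chains, clonotypes by TRB, 3 or more cells, no related single cells, no largest clonotype and clonotypes for cells.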

Additional observations from a re-analysis of the deposited data

Results flagged for a closer look

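In 4 measures the difference between expanded and single-cell clonotypes, given as expanded minus single-cell, went opposite ways in the libraries. The opposite directions flagged them, and the difference between the libraries was not tested. The share of cells with a TRAJ segment numbered 25 or lower differed by 18.97 points in control, from 2 member clonotypes, and by -27.5 points in ATRA, also from 2. Glycine in the alpha CDR3 loop differed by 6.44 points in control and by -5.28 points in ATRA. Beta CDR3 length differed by -0.0167 residues in control and by 0.220 residues in ATRA. Aromatic residues in the beta CDR3 loop differed by 0.163 points in control and by -4.26 points in ATRA. The last 3 are below 1 SD between chains in each library.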

How the results depend on the processing

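The paired shares fell as the UMI minimum per chain rose, and a minimum removes chains and so can lower pairing by itself. With at least 2 UMIs per chain, 25% of control member cells and 17.2% of control single cells were paired, and 74.5% and 54.6% in ATRA. With at least 3 UMIs it was 0% (0 to 41.0) and 10.4% (3.47 to 22.7) in control, and 56.8% and 43.0% in ATRA. The control order turned there, but none of the few members left could be paired, and the intervals overlapped. At 3 UMIs the control share of cells in expanded clonotypes was 12.7%, and 0% of control member cells used TRAJ25 or lower. With 2-cell clonotypes left out, expanded clonotypes held 9.38% of control and 17.4% of ATRA cells, and 100% of the ATRA members were paired. TRAJ25 or lower was then used by 0% of members in both libraries, 0% of control single cells had a member chain, and 0 segments were lower in ATRA. Counted as clonotypes, expanded ones were 10.8% in control and 14.8% in ATRA. Clonotypes defined by the beta chain gave 40.5% of ATRA cells in expanded clonotypes, and 41.9% with the V name ignored, an alternative chosen after seeing the data. The ratio of TRBV14 then turned to 1.26 and 1.19, and TRBJ2-7 (0.524) and TRBV13-1 (0.611) lost the call by the beta chain. The ratio of TRBJ2-4 was 0.990 over clonotypes. The other 171 values of the main results moved by less than their counting error, quartiles or a factor of 1.5. Some of them could not move, such as those of single cells where only expanded clonotypes were left out. Wide intervals also left room for large shifts, as 29.9 to 80.2 for the paired share of control members. The count of 171 is thus no measure of how well the results held. Among single segments and CDR3 features, 22 values passed the 2-fold line and 20 fell back from it. A ratio with a group at 0 gave no value where its bound had no direction. The alternatives for bases added at the joins were not run. The libraries have no replicates, so differences between mice and between the treatments cannot be told apart.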
